A study of Mus musculus with 6 samples.

Results

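The genes described here are 10 markers of myeloid cells and monocytes: *Csf1r*, *Adgre1*, *Lyz2*, *Ptprc*, *Tyrobp*, *Fcer1g*, *Aif1*, *Cd14*, *Ly6c2* and *Plac8*. They were taken by symbol from a table of raw counts for 37384 genes, and all 10 symbols were in it. The table came from RNA sequencing of adipocytes that were floated out of collagenase-digested inguinal subcutaneous white adipose tissue (scWAT) of male mice at postnatal day 7. Control libraries were made from L1L2-FF mice, which carry floxed *Lats1* and *Lats2* alleles (Lats1f/fLats2f/f) without Cre. Knockout libraries were made from L1L2-AKO mice, which carry the same floxed alleles and Adipoq Cre, a constitutive Cre driven by the *Adipoq* promoter of fat cells. LATS1 and LATS2 are the kinases of the Hippo pathway that restrain YAP and TAZ. Each genotype had 3 libraries, each from a pool of 4 mice, so the p-values below measure the spread between pools. No sort for or against leukocytes is described for the floated cells, and the Cre is not one of myeloid cells.

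Total counts ranged from 30548473 to 32107917 per library. Of the targeted genes, *Lats1* fell from 82.9 ± 9.90 to 40.2 ± 1.16 CPM (counts relative to the TMM-scaled total of the library, mean ± SD, n = 3 libraries per genotype here and below), a log2 fold change of -1.04 (edgeR, adjusted p = 0.00131). *Lats2* went against the label, rising from 76.4 ± 8.68 to 119 ± 20.6 CPM, a log2 fold change of 0.64 (edgeR, adjusted p = 0.0278). A count over the whole gene takes in exons outside the floxed part, so the genotypes are given below as the libraries are labelled. The paper reports reduced mRNA of both genes in scWAT adipocytes isolated from knockout males of the same age. That was a separate measurement and was not compared with these counts. The first principal component held 61.8% of the variance and separated the labelled genotypes. The labelled cell type was present, by the summed level of 10 mature adipocyte genes. That sum was 22500 to 30930 CPM in the libraries labelled L1L2-FF and 24660 to 32860 CPM in those labelled L1L2-AKO. *Lpl* and *Fabp4* were the most abundant of these genes, and 4 of the 10 were called lower and 0 higher. The sum therefore does not show that adipocyte content was equal.

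Myeloid cells mature under the ETS transcription factor PU.1, and monocytes and macrophages depend on signals through the CSF1 receptor for survival and growth. Many of their surface receptors lack a signalling tail of their own and borrow that of the adaptors TYROBP (DAP12) and FCER1G, whose ITAM motifs recruit the kinase SYK. In adipose tissue, resident macrophages take up lipid and dead cells, and blood monocytes with high surface Ly6C enter by way of the chemokine receptor CCR2.

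Pan-myeloid genes and the monocyte marker *Cd14* were more abundant in the floated adipocytes labelled L1L2-AKO. The ratio of mean CPM ran from 2.11 for *Lyz2* to 6.18 for *Aif1*. *Ly6c2* and *Plac8*, also genes of monocytes, had log2 fold changes of 0.71 and 0.67 and did not pass the test. Of 6 further classical monocyte genes given below, 2 were called higher and 0 lower. All 10 genes passed the filter on low counts, and 8 of 10 were higher with an adjusted p under 0.05 (edgeR), against 9.28% of the 15674 genes tested. None was lower, against 7.18% of the tested genes, and 16.5% of the tested genes were called in either direction. The same shares are the ones to set beside the counts called in each list below, and a short list can hold few calls or none at such shares. The count of 8 higher genes fell to 4 without L1L2-FF 1 and to 4 without L1L2-AKO 2, and the *Cd14* call was lost in each of these fits. The libraries of the labelled genotypes did not overlap for 9 of the 10 genes, with L1L2-AKO higher, against 18.0% of the tested genes. The median log2 fold change of the 10 genes was 1.27, and that of all tested genes was -0.02. In the plot of CPM by library this gap is seen for every gene but *Ly6c2*. In bulk libraries such as these, more cells of a type and more RNA per cell cannot be told apart.

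**Figure D1:**
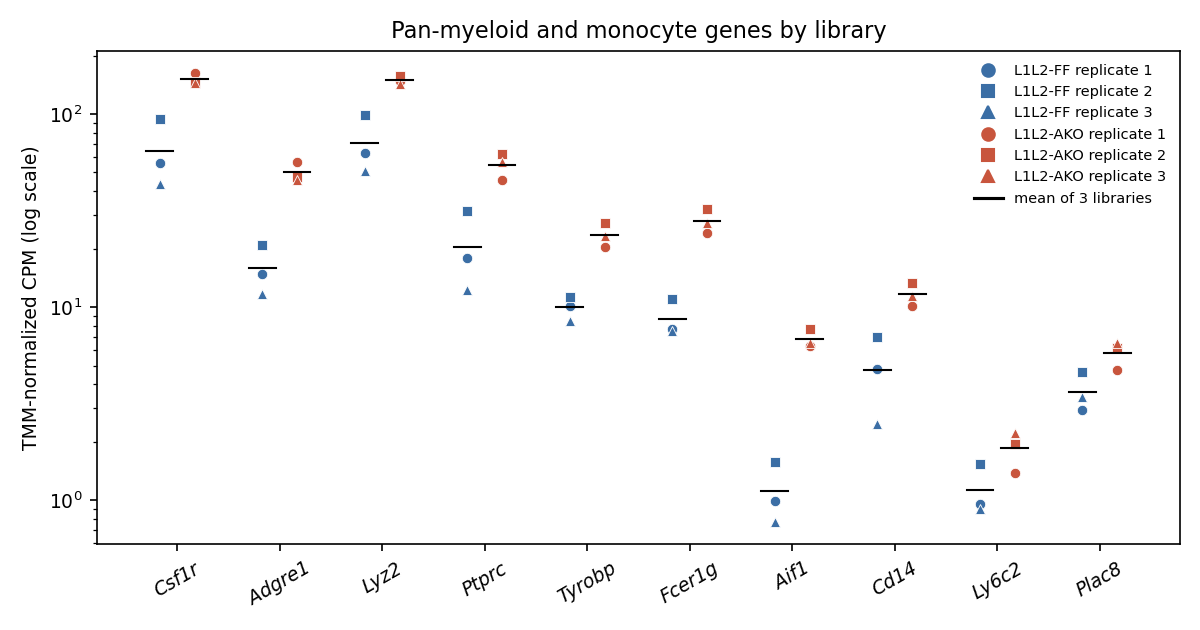
TMM-normalized CPM on a log scale for the 10 genes, 1 point per library (blue, labelled L1L2-FF; orange, labelled L1L2-AKO; marker shapes give replicates 1 to 3), with black lines at the mean of 3 libraries. The orange points lie above the blue ones for 9 of 10 genes, and *Ly6c2*, near 1 to 2 CPM, is the gene whose libraries overlap.

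Values by library are given in the order of replicates 1, 2 and 3, and standard errors are those of the log2 fold change in edgeR's quasi-likelihood test, with p adjusted over all tested genes. *Csf1r* encodes the receptor for CSF1 and IL34 and lies at chr18:61100598-61132149 on the plus strand (mm10, as are all gene positions below). It stood at 55.8, 94.3 and 43.7 CPM in the libraries labelled L1L2-FF and at 163, 148 and 146 CPM in those labelled L1L2-AKO. The libraries did not overlap, and the control libraries were spread more widely, with a coefficient of variation of 40.9% against 6.3%. *Csf1r* rose by a log2 fold change of 1.24 (SE 0.26, adjusted p = 0.0155). The call was lost without L1L2-FF 1 (adjusted p = 0.0731) and without L1L2-AKO 2 (adjusted p = 0.0505). Of its 50-base stretches, 14.3% also occur in *Hmgxb3*, an overlapping gene on the opposite strand, and since the strand setting of the counting is not given in the sources used here, reads of the pair cannot be told apart. *Hmgxb3* itself was at 23.9 ± 1.11 and 25.6 ± 1.59 CPM (log2 fold change 0.10, adjusted p = 0.61).

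The ligands of the receptor differed in direction. *Csf1*, the growth factor of macrophages, was at 41.9, 62.2 and 39.2 CPM in the libraries labelled L1L2-FF and at 152, 245 and 276 CPM in those labelled L1L2-AKO. Its libraries did not overlap, and it rose by a log2 fold change of 2.23 (SE 0.26, edgeR, adjusted p = 0.00153). *Il34*, the other ligand, fell by 1.23 on the log2 scale, from 6.60 ± 1.68 to 2.82 ± 0.826 CPM (edgeR, adjusted p = 0.0251). *Csf2ra*, the GM-CSF receptor alpha chain, rose from 10.03 ± 1.03 to 19.0 ± 1.16 CPM (log2 fold change 0.92, adjusted p = 0.00425), while *Csf2rb*, the beta chain, was at 47.2 ± 16.8 and 43.0 ± 6.97 CPM (log2 fold change -0.14, adjusted p = 0.776). Over the list of 9 myeloid growth factors and their receptors, 7 could be tested, of which 2 were higher and 1 was lower. Of all tested genes, 9.28% were higher and 7.18% lower. The list's median log2 fold change was 0.41. Without L1L2-FF 2 the list had 5 calls. *Csf2* held 0 to 5 counts per library and was under the filter, and *Flt3l* was not analysed here.

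Myeloid transcription factors moved in part. *Spi1*, which encodes PU.1, was at 6.42, 8.57 and 5.09 CPM in the libraries labelled L1L2-FF and at 20.8, 24.5 and 22.5 CPM in those labelled L1L2-AKO. Its libraries did not overlap, and it rose by a log2 fold change of 1.76 (SE 0.20, edgeR, adjusted p = 0.00142). *Maf*, a factor of resident macrophages, rose from 74.7 ± 3.96 to 136 ± 9.01 CPM (log2 fold change 0.87, adjusted p = 0.00193). Among the other factors, *Runx1*, *Irf5* and *Tfec* rose, with log2 fold changes of 1.53, 1.34 and 1.87. The more abundant factors of the list otherwise did not pass the test: *Cebpa*, which fat cells use as well, was at 639 ± 71.0 and 495 ± 99.0 CPM, *Nr4a1* at 205 ± 69.3 and 124 ± 26.2 CPM, and *Klf4* at 106 ± 33.4 and 92.7 ± 3.60 CPM. In all, 6 of 13 tested factors were higher and 0 were lower, and the list's median log2 fold change was 0.66. *Spi1*, *Runx1*, *Irf5* and *Tfec* were named after their values were seen.

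Since PU.1 binds the core GAGGAAG, promoter sequence was read for the genes of the set, from 250 bases before to 50 bases after each RefSeq start (GRCm38.p6). *Ptprc*, *Fcer1g*, *Plac8*, *Lyz2*, *Ly6c2* and *Aif1* had such windows, 9 in all, and *Csf1r*, *Adgre1*, *Tyrobp* and *Cd14* had none in the table used. The core was searched on both strands and was found for 1 of the 6 genes, *Ly6c2*. Both of its overlapping windows held it, so 2 of the 9 windows did, against 13.6% of all 32851 windows. The share over all genes was not computed. A match or its absence describes these letters in these windows and says nothing of binding. The 250 bases before the start are shown for *Ly6c2*, the gene that holds the core, and for *Fcer1g* and *Aif1*, whose log2 fold changes were the highest of the set, each 5′ to 3′ on the minus strand with the core in capitals. The *Ly6c2* sequence is chr15:75111972-75112221 with the core at position -108 from the start, that of *Fcer1g* is chr1:171234350-171234599, and that of *Aif1* is chr17:35176053-35176302.
Ly6c2: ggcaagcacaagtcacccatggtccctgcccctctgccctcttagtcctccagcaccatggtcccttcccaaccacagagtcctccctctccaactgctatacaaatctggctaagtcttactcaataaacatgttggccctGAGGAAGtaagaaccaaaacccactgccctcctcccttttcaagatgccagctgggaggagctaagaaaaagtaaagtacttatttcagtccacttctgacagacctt
Fcer1g: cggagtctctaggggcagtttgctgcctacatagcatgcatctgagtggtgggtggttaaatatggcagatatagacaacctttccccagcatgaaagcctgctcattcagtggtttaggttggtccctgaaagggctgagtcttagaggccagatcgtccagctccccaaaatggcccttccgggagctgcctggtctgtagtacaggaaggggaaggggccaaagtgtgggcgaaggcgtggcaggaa
Aif1: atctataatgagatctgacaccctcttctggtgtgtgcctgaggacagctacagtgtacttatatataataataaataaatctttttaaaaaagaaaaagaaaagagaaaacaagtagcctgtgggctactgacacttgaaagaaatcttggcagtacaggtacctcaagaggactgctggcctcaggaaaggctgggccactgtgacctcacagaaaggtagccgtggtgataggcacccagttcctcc

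The adaptor genes had the smallest spread among the control libraries of the 10 genes, by coefficient of variation. *Tyrobp* (chr7:30413760-30417585, plus strand), whose product carries 1 ITAM and pairs with TREM and C-type lectin receptors, was at 10.1, 11.4 and 8.51 CPM in the libraries labelled L1L2-FF and at 20.7, 27.5 and 23.3 CPM in those labelled L1L2-AKO. The lowest library labelled L1L2-AKO stood well above the highest control, and the coefficients of variation were 14.4% and 14.5%. *Tyrobp* rose by a log2 fold change of 1.25 (SE 0.17, adjusted p = 0.00254). *Fcer1g* (chr1:171229572-171234365, minus strand), the common gamma chain of Fc receptors, was at 7.72, 11.0 and 7.51 CPM and at 24.4, 32.2 and 27.2 CPM. Its libraries did not overlap, and it rose by a log2 fold change of 1.67 (SE 0.19, adjusted p = 0.00141). Both calls held in each of the 6 fits that left out 1 library. No 50-base stretch of either gene occurs in another gene.

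Receptors that pair with these adaptors rose as well, with 7 of 12 tested genes higher, 0 lower and a median log2 fold change of 1.31. *Fcgr3*, a low-affinity IgG receptor, rose from 11.6 ± 4.49 to 37.9 ± 1.82 CPM (log2 fold change 1.70, edgeR, adjusted p = 0.00332). The high-affinity IgG receptor gene *Fcgr1* rose from 2.23 ± 0.485 to 11.3 ± 1.67 CPM (log2 fold change 2.34, adjusted p = 0.00069). *Clec4n* (Dectin-2) rose by a log2 fold change of 2.45, and *Clec4e* (Mincle) by 1.43. *Trem2*, the lipid receptor that uses TYROBP, was at 0.966 ± 0.482 and 2.18 ± 0.222 CPM and did not pass the test (log2 fold change 1.17, adjusted p = 0.094), a gene named after its value was seen. Downstream of the ITAM, 11 of 12 signalling genes were higher and 0 were lower, and the list's median log2 fold change was 1.17. *Syk*, the kinase that docks on phosphorylated ITAMs, rose from 13.5 ± 1.71 to 22.1 ± 1.95 CPM (log2 fold change 0.71, adjusted p = 0.0148), and *Lyn*, the Src family kinase that phosphorylates them, from 65.5 ± 4.04 to 91.7 ± 12.2 CPM (0.49, adjusted p = 0.0377). The phosphatase genes *Inpp5d* (SHIP1) and *Ptpn6* (SHP1), which dampen the pathway, rose by log2 fold changes of 0.71 and 1.35. *Blnk*, named after its value was seen, was the gene of the list that was not called (adjusted p = 0.0667). The count of 11 was the least stable of these: it was 7 with library size alone or with library sizes computed without the top 20 genes by abundance, 5 without L1L2-FF 1, 7 without L1L2-FF 3, 7 without L1L2-AKO 1 and 4 without L1L2-AKO 2.

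*Adgre1* encodes F4/80, the surface receptor by which mouse macrophages are most often stained, and lies at chr17:57358691-57483527 on the plus strand. It was at 14.9, 21.1 and 11.8 CPM in the libraries labelled L1L2-FF and at 56.6, 47.6 and 45.9 CPM in those labelled L1L2-AKO. Every library labelled L1L2-AKO was above every control, and L1L2-AKO 1 was the highest, as it was for *Csf1r*. *Adgre1* rose by a log2 fold change of 1.65 (SE 0.21, edgeR, adjusted p = 0.00215), a call that held in each fit without 1 library.

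*Aif1* (chr17:35170991-35176068, minus strand) encodes IBA1, a calcium-binding protein of macrophages that acts on actin. It was at 0.990, 1.58 and 0.774 CPM in the libraries labelled L1L2-FF, from 31, 51 and 24 counts, and at 6.33, 7.74 and 6.56 CPM in those labelled L1L2-AKO, from 210, 244 and 188 counts. The gap between the genotypes was far wider than the spread within them. *Aif1* rose by a log2 fold change of 2.62 (SE 0.29, edgeR, adjusted p = 0.00128), and 1.24% of the tested genes had a higher log2 fold change. The call held in each fit without 1 library.

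*Ptprc* (chr1:138062861-138175708, minus strand) encodes CD45, the phosphatase on the surface of nearly all leukocytes, so lymphocytes count towards it too. It was at 18.1, 31.6 and 12.3 CPM in the libraries labelled L1L2-FF and at 45.8, 62.3 and 56.5 CPM in those labelled L1L2-AKO. The libraries did not overlap, but the control libraries had a coefficient of variation of 47.9%, the widest of the 10 genes. *Ptprc* rose by a log2 fold change of 1.41 (SE 0.31, edgeR, adjusted p = 0.0195). The call was lost without L1L2-FF 1 (adjusted p = 0.0835), without L1L2-AKO 2 (0.073) and without L1L2-AKO 3 (0.0627).

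*Lyz2* (chr10:117277331-117282321, minus strand) encodes lysozyme M, which cleaves bacterial cell walls and is made by monocytes, macrophages and neutrophils. It was at 63.4, 99.5 and 50.8 CPM in the libraries labelled L1L2-FF and at 150, 159 and 143 CPM in those labelled L1L2-AKO. Again the libraries did not overlap, with a coefficient of variation of 35.5% in the controls and 5.2% in the others. *Lyz2* rose by a log2 fold change of 1.08 (SE 0.23, edgeR, adjusted p = 0.0164). The call was lost without L1L2-FF 1 (adjusted p = 0.0767) and without L1L2-AKO 2 (0.0626). Of its 50-base stretches 15.4% are shared with the neighbouring *Lyz1*, which held 0 to 10 counts per library.

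*Cd14* (chr18:36725067-36726798, minus strand) encodes the co-receptor that passes lipopolysaccharide to TLR4 and is used as a marker of monocytes. It was at 4.79, 7.02 and 2.48 CPM in the libraries labelled L1L2-FF and at 10.1, 13.4 and 11.5 CPM in those labelled L1L2-AKO. The libraries did not overlap. *Cd14* rose by a log2 fold change of 1.29 (SE 0.34, edgeR, adjusted p = 0.0366), the weakest of the 8 calls. It was lost without L1L2-FF 1 (adjusted p = 0.116), L1L2-AKO 1 (0.0549), L1L2-AKO 2 (0.122) or L1L2-AKO 3 (0.0964), with library size alone (0.0508) and with library sizes computed without the top 20 genes (0.0529).

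Partners of CD14 were split. *Lbp*, the plasma protein that hands lipopolysaccharide to CD14, was at 90.8, 49.7 and 29.7 CPM in the libraries labelled L1L2-FF and at 311, 505 and 671 CPM in those labelled L1L2-AKO. It rose by a log2 fold change of 3.13 (SE 0.44, edgeR, adjusted p = 0.00315), with no overlap of libraries. *Tlr4*, the receptor itself, was at 14.2 ± 3.94 and 13.3 ± 1.61 CPM (log2 fold change -0.09, adjusted p = 0.835), a gene named after its value was seen. Neither the adaptor gene *Myd88* (53.1 ± 4.05 and 61.3 ± 12.9 CPM) nor the kinase gene *Irak1* (93.8 ± 11.1 and 90.0 ± 5.16 CPM) passed the test, while the kinase gene *Irak4* rose from 14.0 ± 0.984 to 21.8 ± 2.54 CPM (log2 fold change 0.64, adjusted p = 0.0184). Over the list, 6 of 14 were higher and 0 were lower, and the list's median log2 fold change was 0.71. Without L1L2-FF 1 the count was 3, and it was 3 without L1L2-AKO 2.

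*Ly6c2* (chr15:75108158-75111970, minus strand) encodes the Ly6C antigen that marks classical monocytes. It held 30, 50 and 28 counts in the libraries labelled L1L2-FF and 46, 62 and 64 in those labelled L1L2-AKO, or 0.958, 1.55 and 0.902 CPM and 1.39, 1.97 and 2.23 CPM. The highest control, L1L2-FF 2, lay above the lowest library labelled L1L2-AKO. The log2 fold change was 0.71 (SE 0.34, edgeR, adjusted p = 0.204), and it passed the threshold in none of the fits tried. Its near copy *Ly6c1*, which endothelial cells express, shares 13.9% of its 50-base stretches and held 1301 to 3438 counts per library (81.6 ± 29.7 and 60.2 ± 19.7 CPM, log2 fold change -0.44, adjusted p = 0.394), so the split of reads between the pair is uncertain.

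*Plac8* (chr5:100553725-100572245, minus strand) encodes a small cysteine-rich protein found in monocytes, granulocytes and lymphocytes. It was at 2.94, 4.61 and 3.45 CPM in the libraries labelled L1L2-FF and at 4.74, 6.15 and 6.56 CPM in those labelled L1L2-AKO. The libraries did not overlap, but the highest control and the lowest library labelled L1L2-AKO were close together. The log2 fold change of 0.67 (SE 0.24, edgeR, adjusted p = 0.0991) did not pass the threshold. It passed without L1L2-FF 2 (adjusted p = 0.0447) and in DESeq2's Wald test (adjusted p = 0.0481).

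**Figure D2:**
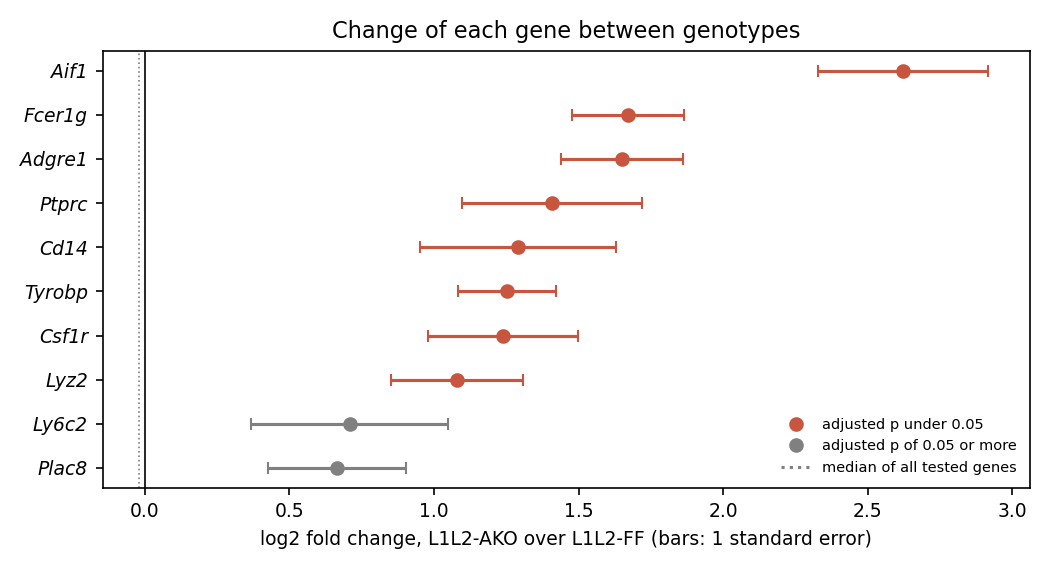
Log2 fold change (labelled L1L2-AKO over labelled L1L2-FF, x axis) of the 10 genes, with bars of 1 standard error, in orange where the adjusted p was under 0.05 and in grey where it was not. *Aif1* stands highest at 2.62, *Ly6c2* (0.71) and *Plac8* (0.67) are the grey points, and the dotted line marks the median of all tested genes, -0.02.

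Other genes of blood monocytes gave mixed values. *Ccr2*, the receptor through which classical monocytes leave the marrow and enter tissue, was at 2.39, 7.24 and 3.51 CPM in the libraries labelled L1L2-FF and at 10.5, 13.4 and 14.9 CPM in those labelled L1L2-AKO. Its libraries did not overlap, and it rose by a log2 fold change of 1.56 (SE 0.38, edgeR, adjusted p = 0.0273). *Ms4a4c* rose as well (log2 fold change 2.51, adjusted p = 0.0236), from 2 to 16 counts per library to 37 to 53, a gene named after its value was seen. *Ifitm6* and *F10* did not pass, with log2 fold changes of 0.67 and 0.09, and *Chil3*, a defining gene of classical monocytes, held 2 to 18 counts per library. Of the 6 classical monocyte genes 2 were higher and 0 were lower, and the list's median log2 fold change was 0.65. The count was 0 without L1L2-FF 1, L1L2-AKO 2 or L1L2-AKO 3, 1 without L1L2-FF 3, and 1 with at least 10 counts required in every library.

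Among non-classical monocyte genes, *Cx3cr1*, the fractalkine receptor that resident macrophages also carry, was at 2.11, 2.35 and 2.80 CPM in the libraries labelled L1L2-FF and at 17.2, 17.1 and 13.1 CPM in those labelled L1L2-AKO. The libraries were far apart, and *Cx3cr1* rose by a log2 fold change of 2.71 (SE 0.20, edgeR, adjusted p = 0.000316). *Itgal*, the integrin LFA-1 alpha chain of leukocytes, rose from 8.89 ± 3.17 to 20.4 ± 3.81 CPM (log2 fold change 1.20, adjusted p = 0.0179), and *Adgre4*, a relative of F4/80, from 2.81 ± 0.349 to 5.17 ± 0.581 CPM (0.88, adjusted p = 0.0251). *Ace* was at 22.2 ± 4.09 and 18.0 ± 3.86 CPM and did not pass (log2 fold change -0.30). The list had 3 of 7 tested genes higher, 0 lower and a median log2 fold change of 0.71. It had 1 call without L1L2-FF 1, 1 without L1L2-AKO 2 and 1 without L1L2-AKO 3. *Cd300e*, at 7 to 12 counts per library, was under the filter.

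Tissue macrophage genes were higher in 6 of 10 cases and lower in 0, and the list's median log2 fold change was 1.15. *Mrc1*, the mannose receptor CD206, rose from 71.5 ± 23.6 to 256 ± 28.1 CPM (log2 fold change 1.84, edgeR, adjusted p = 0.00213). *Stab1*, a scavenger receptor, rose from 83.5 ± 19.99 to 148 ± 19.8 CPM (0.83, adjusted p = 0.0229). The complement genes *C1qa* and *C1qc* rose by log2 fold changes of 1.54 and 1.48. *Mertk*, *Lyve1*, *Folr2* and *Timd4*, named after their values were seen, did not pass, with log2 fold changes of -0.03, 0.48, 0.59 and 0.45.

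To ask whether the genes changed by another factor than *Csf1r*, each was set against *Csf1r* in the same library as a log2 ratio of counts, which does not depend on the scaling between libraries. With 3 libraries against 3, the exact permutation test (two-sided) cannot give a p under 0.1, so none of the 9 ratios could pass 0.05. Ratios did not overlap between the labelled genotypes for *Aif1*, *Adgre1*, *Ly6c2* and *Plac8*. The share of all tested genes whose ratio to *Csf1r* does not overlap was not computed. *Csf1r* itself rose (log2 fold change 1.24), so a gene without change would fall against it. *Aif1* gained on *Csf1r*, by 1.35 on the log2 scale (-5.82 ± 0.06 in L1L2-FF and -4.47 ± 0.22 in L1L2-AKO, exact permutation p = 0.1, 0.225 adjusted over the 9 ratios). *Adgre1* differed by 0.37 (-1.98 ± 0.16 and -1.61 ± 0.07, exact permutation p = 0.1, adjusted 0.225). The log2 fold changes of *Ly6c2* and *Plac8*, neither of which passed the test, were smaller than that of *Csf1r*, and their ratios went the other way. The ratio of *Ly6c2* differed by -0.59 (-5.78 ± 0.18 and -6.37 ± 0.44) and that of *Plac8* by -0.64 (-4.08 ± 0.37 and -4.72 ± 0.34), each with an exact permutation p of 0.1, adjusted 0.225. For the 5 genes whose ratios overlapped, the differences were 0.37 for *Fcer1g*, 0.19 for *Ptprc*, 0.09 for *Cd14*, -0.06 for *Tyrobp* and -0.18 for *Lyz2*, with exact permutation p from 0.2 to 0.9. With *Ptprc* in place of *Csf1r* as the denominator, the *Adgre1* difference was 0.18 (exact permutation p = 0.7), and those of *Aif1*, *Ly6c2* and *Plac8* were 1.16, -0.78 and -0.83 (each p = 0.1).

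**Figure D3:**
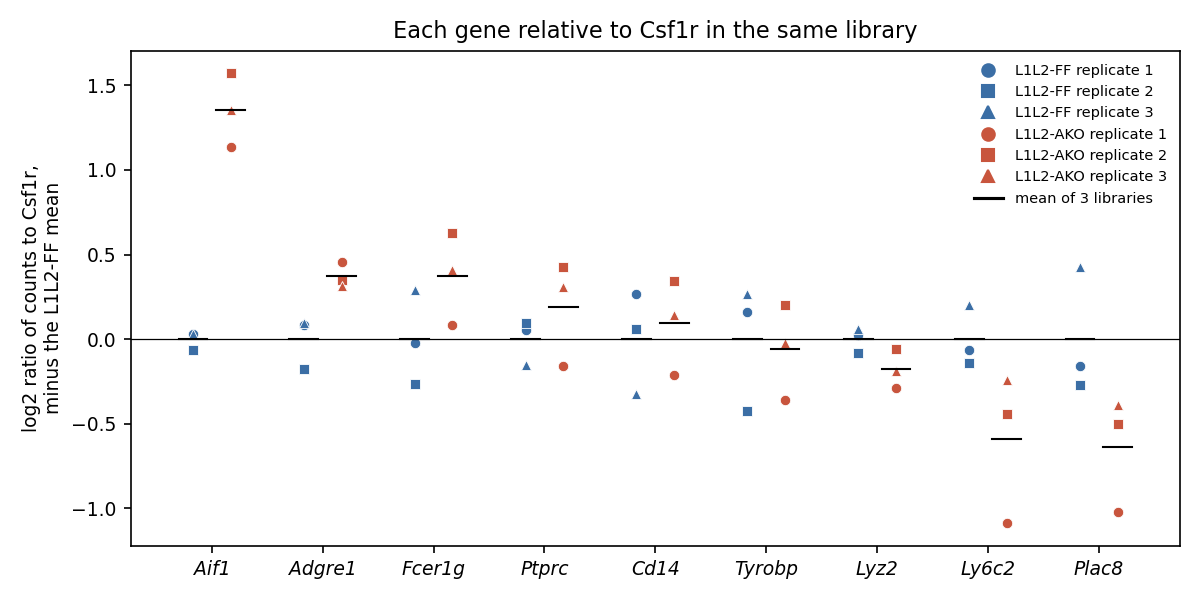
Log2 ratio of each gene's count to that of *Csf1r* in the same library, minus the mean of the libraries labelled L1L2-FF, 1 point per library (blue, L1L2-FF; orange, L1L2-AKO) with black lines at the means. The orange points of *Aif1* lie near 1.35 above 0, those of *Ly6c2* and *Plac8* lie below the blue ones, and those of *Tyrobp*, *Cd14* and *Ptprc* overlap them.

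Levels of different genes can be compared only per length, here as CPM per kilobase of annotated exon. In the libraries labelled L1L2-FF, *Lyz2* led with 54.1 ± 19.2, followed by *Tyrobp* (15.0 ± 2.16), *Csf1r* (11.2 ± 4.58), *Fcer1g* (10.02 ± 2.27), *Adgre1* (4.92 ± 1.45), *Cd14* (2.75 ± 1.31), *Plac8* (2.30 ± 0.537), *Ptprc* (1.13 ± 0.541), *Aif1* (0.727 ± 0.271) and *Ly6c2* (0.414 ± 0.130). Of neighbours in that order, *Lyz2* and *Tyrobp*, *Fcer1g* and *Adgre1*, and *Plac8* and *Ptprc* did not overlap, while the other pairs did. In the libraries labelled L1L2-AKO, *Lyz2* again led with 114 ± 5.95 and *Ly6c2* came last with 0.680 ± 0.158. *Fcer1g* (32.0 ± 4.51) stood before *Csf1r* (26.4 ± 1.66) there, though their libraries overlapped, as did those of *Fcer1g* and *Tyrobp* (35.7 ± 5.19). *Aif1* moved from place 9 to place 7 with 4.49 ± 0.492, above *Plac8* (3.66 ± 0.603) and *Ptprc* (3.00 ± 0.455) without overlap by this length. Several places depend on the length used. The annotated exons of *Ptprc* add up to 18313 bases and its longest coding transcript has 5074, and with the latter it was at 4.07 ± 1.95 and 10.8 ± 1.64 CPM per kilobase, place 6 in both genotypes. By that length *Aif1* (1.27 ± 0.475) and not *Ly6c2* (1.38 ± 0.434) came last in L1L2-FF, with overlap, and *Cd14* moved to place 8 in both genotypes. In L1L2-AKO *Aif1* (7.86 ± 0.861) then stood below *Ptprc* without overlap, and *Fcer1g* (40.9 ± 5.77) before *Tyrobp* (39.9 ± 5.80) with overlap.

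The spread within the controls had a common shape. L1L2-FF 2 was the highest control library for 10 of 10 genes, against 40.1% of the tested genes, and L1L2-FF 3 was the lowest for 9 of 10, against 38.7%. The summed CPM of the 10 genes was 180, 284 and 142 in the libraries labelled L1L2-FF and 483, 505 and 469 in those labelled L1L2-AKO, without overlap. The coefficient of variation was larger in L1L2-FF for 9 of 10 genes, against 60.6% of the tested genes, with *Tyrobp* as the exception. Red cell genes, a measure of blood in the sample, were also highest in L1L2-FF 2: their summed level was 1717, 2936 and 1512 CPM in L1L2-FF and 1642, 1775 and 1792 CPM in L1L2-AKO. None of the 5 was called, and their part in the spread was not tested. Without L1L2-FF 2, 9 of 10 genes passed the threshold, with *Plac8* added and *Ly6c2* the exception.

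Genes of other leukocytes were read beside these results. Neutrophils also express *Lyz2*, *Fcer1g* and *Tyrobp*, and their part in these levels was not tested. Of 10 tested neutrophil genes 0 were called (edgeR, with 2 at an unadjusted p under 0.05, 1 called by DESeq2 and 0 by limma-voom), and their median log2 fold change was -0.27. *S100a9* was at 10.4 ± 5.01 and 7.10 ± 1.97 CPM and *S100a8* at 3.37 ± 1.13 and 2.83 ± 0.445 CPM, while *Mpo* held 0 to 8 counts per library. Their summed level was 19.7 to 38.1 CPM in the libraries labelled L1L2-FF and 15.6 to 24.6 CPM in those labelled L1L2-AKO. Of the 7 dendritic cell genes, 0 were higher and 1, *Itgae*, was lower (log2 fold change -1.38, adjusted p = 0.0311), against 7.18% of all tested genes lower. The *Itgae* call was lost with the replicate block and on leaving out L1L2-FF 1, L1L2-FF 3 or any library labelled L1L2-AKO, while the list had 2 calls without L1L2-FF 2. *Itgax*, *Ccr7* and *Cd209a*, named after their values were seen, had log2 fold changes of 1.26, 1.23 and 1.69 and did not pass (adjusted p = 0.118, 0.211 and 0.175), with no overlap of libraries for *Itgax* and *Cd209a*. The list sum was 31.7 to 42.1 and 27.6 to 40.2 CPM. Most of that sum was *Zbtb46*, at 28.4 ± 5.79 and 25.3 ± 5.94 CPM, so the sum says little of the other genes in the list. The list's median log2 fold change was -0.17, and *Xcr1* held 8 to 30 counts per library. Eosinophil genes were near 0, with sums of 0.290 to 1.89 and 0.952 to 1.78 CPM, *Siglecf* and *Epx* at 0 to 8 counts per library, and 0 calls for *Ccr3*, the 1 gene tested (log2 fold change 1.50, adjusted p = 0.0924, called without L1L2-FF 2).

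T cells carry *Ptprc* too. Their 6 genes had 0 calls (edgeR, with 3 at an unadjusted p under 0.05, 1 called by DESeq2 and 0 by limma-voom) and a median log2 fold change of 1.14. *Cd4*, the co-receptor of helper T cells, was at 2.49 ± 1.16 and 5.92 ± 2.04 CPM (log2 fold change 1.25, adjusted p = 0.0732), and *Lck* was at 2.41 ± 1.42 and 4.93 ± 1.30 CPM. The summed level was 7.15, 16.5 and 4.99 CPM in L1L2-FF and 11.7, 23.9 and 25.1 CPM in L1L2-AKO, so the labelled genotypes overlapped. Without L1L2-FF 2 the count was 4, and it was 1 without L1L2-AKO 1. The part of T cells in the level of *Ptprc* was not tested.

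**Figure D4:**
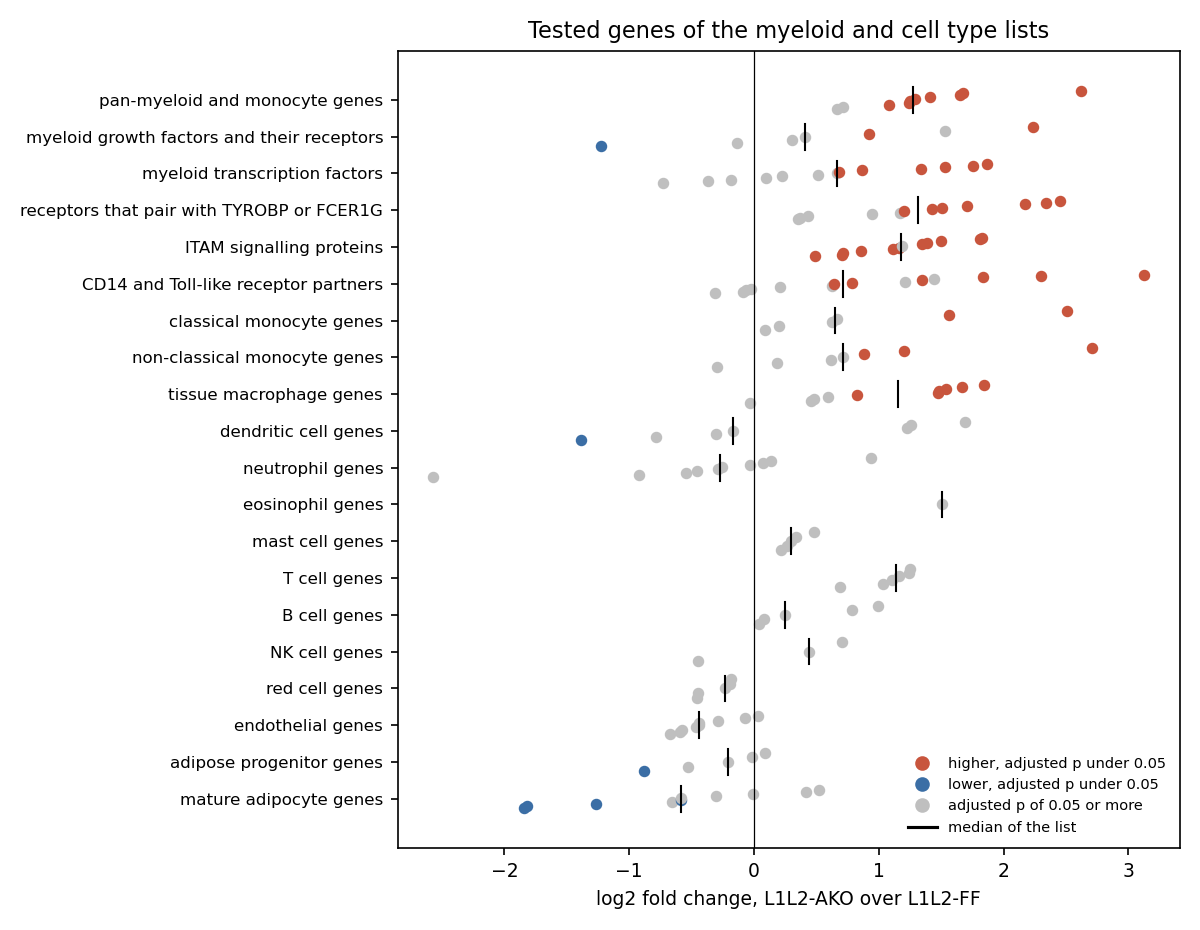
Log2 fold change (labelled L1L2-AKO over labelled L1L2-FF, x axis) of every tested gene, 1 point per gene, in the 10 pan-myeloid and monocyte genes and 19 lists (rows), in orange where higher and blue where lower with an adjusted p under 0.05, grey otherwise, with a black line at the list's median. The orange points lie in the 10 genes and in the pathway, monocyte and tissue macrophage lists, with list medians from 0.41 to 1.31, and the lists of neutrophils, B cells, red cells and endothelium are grey throughout.

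Genes outside the set followed the same profile over the 6 libraries. By Pearson's r with the mean z-score of the 10 genes, among 11455 genes whose average log2 CPM was 2 or more, the 8 most alike were *Rac2* (r = 0.998), *Rapgef3*, *Clec4n*, *Arhgap9*, *C1qc*, *Arhgap30*, *Ifi204* and *Thbd* (r = 0.995). These r values are a description over 6 libraries that fall into 2 genotypes, and 381 genes reached an r of 0.95. *Rac2*, a small GTPase of blood cells, was at 13.7 CPM in L1L2-FF and 35.4 CPM in L1L2-AKO, and *C1qc* at 32.6 and 91.0 CPM. *Rapgef3*, which encodes the cAMP-activated exchange factor EPAC1, was at 32.3 and 64.9 CPM.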

How the data were processed

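Oligo(dT)-selected RNA of 6 pools of floated adipocytes was sequenced by the authors on a BGISEQ-500 (paired-end). Reads were quality-checked in FastQC, mapped on mm10 by HISAT2 (2.1.0 in the submitters' processing notes) and processed in SAMtools and StringTie (1.3.5). The authors deposited raw counts for each gene symbol, without normalization. The annotation, the counting program and its strand setting are not given in the sources used here. Total counts ranged from 30548473 to 32107917, and 0 rows named no gene.

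Groups came from the submitters' labels. In R 4.3.3, edgeR 4.0.16 kept 15674 genes (filterByExpr, minimum count 10, minimum total 15) and left out 21710. Counts were TMM-normalized and compared by the two-sided quasi-likelihood test, with p adjusted by Benjamini-Hochberg over all tested genes. The threshold was 0.05. Standard errors were taken as the size of the log2 fold change over the root of F. Log2 ratios to Csf1r (0.5 added to each count) were compared by an exact permutation test. Alternatives used other scalings, DESeq2 1.42.0, limma-voom (limma 3.58.1), other filters, a replicate block, an added 2-fold threshold and each library left out in turn. The fit was tested on simulated data.

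The genes, lists and tests were chosen with earlier results of these data known. Named were all 10 genes, up to 4 genes of each list with the highest mean CPM past the filter, every gene of a list with 5 or fewer past the filter, defining markers near 0, and the 8 genes whose profile was most alike. Some genes of the lists are counted but not reported here by name. Positions, exon lengths and shared 50-base stretches come from GENCODE M21 (mm10), and promoters from RefSeq (GRCm38.p6). The 2 libraries of any pair differed beyond sampling noise, so none was counted as a copy. With 3 libraries per genotype, precision is limited by their number.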

Additional observations from a re-analysis of the deposited data

How the results depend on the processing

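The log2 fold changes of the 10 genes kept their direction in all settings tried. The calls of Adgre1, Tyrobp, Fcer1g and Aif1 held in all of them, and Ly6c2 was called in none. The number of the 10 genes past the threshold was 8, with 7 to 9 under other scalings, filters and tests, and 4 to 9 when 1 library was left out (4 without L1L2-FF 1, 4 without L1L2-AKO 2). Over all genes, 2580 passed, with 2413 to 3500 in the other settings, 1366 with an added 2-fold threshold, and 1281 to 2845 when 1 library was left out (1290 without L1L2-FF 1, 1281 without L1L2-AKO 2, 1374 without L1L2-AKO 3). With the replicate block 2514 genes and 8 of the 10 passed, the Itgae call was lost and 3 endothelial genes were added. Whether replicate numbers pair the libraries could not be settled. Deviations of same-numbered libraries correlated at 0.19, 0.26 and -0.05, and L1L2-FF 3 correlated best with L1L2-AKO 1 (0.21). The deviations were taken from means of 3 libraries, so these correlations depend on one another. Of the ratios to Csf1r, that of Tyrobp ranged from -0.274 to 0.0888 and that of Cd14 from -0.0699 to 0.244 when 1 library was left out, and that of Cd14 was -0.0996 against Ptprc. Where a result changed, the cause was not tested.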

Other observations

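Mature adipocyte genes fell in 4 of 10 cases and rose in 0 (edgeR), and the list's median log2 fold change was -0.58. Adipoq, the adipokine adiponectin, fell from 2108 ± 349 to 878 ± 171 CPM, a log2 fold change of -1.26 (adjusted p = 0.0064). Retn (resistin) and Slc2a4 (the insulin-responsive glucose transporter GLUT4) had log2 fold changes of -1.84 and -1.81, and Pparg, the master factor of fat cell fate, of -0.59, all called and the last 3 named after their values were seen. Lpl, the lipoprotein lipase, was at 11750 ± 2947 and 16850 ± 3059 CPM, and Fabp4 at 8164 ± 1201 and 6610 ± 346 CPM, neither of which passed. Plin1 did not pass either (log2 fold change -0.65). Nor did Lipe, Cidec and Lep, named after their values were seen, with log2 fold changes of -0.58, -0.006 and 0.41.

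Of 5 adipose progenitor genes 1 was lower and 0 were higher, against 7.18% lower and 9.28% higher of all tested genes. The list's median log2 fold change was -0.21. Pi16 fell from 24.8 ± 5.23 to 13.5 ± 2.25 CPM (log2 fold change -0.88, edgeR, adjusted p = 0.0195), a call lost without L1L2-FF 1, L1L2-AKO 2 or L1L2-AKO 3. Cd34, Ly6a, Pdgfra and Dpp4 had log2 fold changes of -0.53, -0.01, -0.21 and 0.09 and did not pass. Endothelial genes had 0 calls of 9 (edgeR, with 2 at an unadjusted p under 0.05, 1 called by DESeq2, 0 by limma-voom and 3 with the replicate block) and a median log2 fold change of -0.44. Their summed level was 1956 to 2637 CPM in the libraries labelled L1L2-FF and 1156 to 2469 CPM in those labelled L1L2-AKO.

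Mast cell (5 tested), B cell (5), NK cell (3) and red cell (5) genes had 0 calls by edgeR, DESeq2 and limma-voom and 0 at an unadjusted p under 0.05. Their median log2 fold changes were 0.30, 0.25, 0.44 and -0.23. Of all tested genes 16.5% were called by edgeR, and lists this short can hold 0 calls at that share. Log2 fold changes of the mast cell genes Cpa3, Cma1, Tpsb2, Mcpt4 and Hdc were 0.30, 0.22, 0.33, 0.48 and 0.27. Those of the B cell genes Cd79a, Ms4a1, Cd79b and Pax5 were 0.25, 0.08, 0.04 and 0.99. Those of the NK cell genes Nkg7, Gzma and Klrb1c were 0.44, -0.45 and 0.71. Red cell genes Hba-a1, Hbb-bs, Hbb-bt, Hba-a2 and Alas2 gave -0.19, -0.18, -0.46, -0.45 and -0.23, with the near copies among the globin genes uncertain. Without L1L2-FF 2, 1 B cell gene was called. Mast cell genes summed to 37.4 to 53.4 and 40.4 to 66.3 CPM, B cell genes to 5.67 to 14.4 and 8.45 to 13.6 CPM, and NK cell genes to 0.902 to 2.38 and 1.87 to 2.44 CPM, with Ncr1 at 0 to 11 counts per library.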
